A study of Mus musculus with 6 samples.

Results

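Chaperonins are barrel-shaped chaperones that enclose an unfolded protein and release it folded, using ATP. The genes described here are the 10 that encode the main mouse chaperonins: Tcp1, Cct2, Cct3, Cct4, Cct5, Cct6a, Cct7 and Cct8, the 8 subunits of the cytosolic complex TRiC (also called CCT), and Hspd1 and Hspe1, which encode the mitochondrial chaperonin HSP60 and its lid HSP10. They were chosen by name, as the subunits of both complexes, out of 47729 genes in the count tables and 14625 genes with enough reads to be tested, and all 10 were among the genes tested.

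The libraries were made from lung endothelial cells (ECs) of male mice aged 14 weeks, kept on normal chow and infused with angiotensin II (AngII), a peptide that raises blood pressure, at 1000 ng/kg/min from an osmotic pump for 2 weeks. There were 3 libraries from wild-type (WT) littermates and 3 from leene-KO mice, which lack in every cell the mouse region that corresponds to the human lncRNA gene LINC00520 (removed with CRISPR-Cas9). AngII was given to both genotypes, so no library shows the chaperonin level without it. The study sequenced these cells to find the transcripts that leene deletion altered in ECs. The labels describe CD31-enriched cells pooled from 3 mice per group, whereas the study's methods name a CD144 sort, so n counts libraries and the p-values measure only the spread between libraries, which may be technical. The genotype rests on the labels, because the lncRNAs of the deleted region were not analysed here.

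TRiC is built as a double ring in which each of the 8 subunits holds a fixed place, and it is best known for folding newly made actin and tubulin. Its substrates are handed over by prefoldin, and phosducin-like proteins assist it. HSP60 and HSP10 fold proteins that have been imported into the mitochondrial matrix. Hspd1 and Hspe1 lie head to head and share a bidirectional promoter, and the pair is a classical target of heat shock factor 1 (HSF1), which binds repeated, inverted units centred on the bases GAA. In ECs the actin and tubulin networks bear the shear stress of flowing blood.

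The promoter windows of the members are shown first because the count of such inverted units differed among them. The RefSeq windows of GRCm38.p6, 250 bases before to 50 bases after a transcript start, were found for 9 of the 10 genes, all but Cct4. They were searched for GAANNTTC and TTCNNGAA, each of which reads the same on both strands, so 1 match is 2 adjoining units, and longer runs are made of overlapping matches. In the stretches below, written 5′ to 3′ on the strand of the gene, capitals mark the units of each run.
Hspe1: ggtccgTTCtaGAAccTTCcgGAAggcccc
Hspd1: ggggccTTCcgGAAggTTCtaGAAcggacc
Cct6a: gcgtaagacttTTCgaGAAgaccccgcaga
Cct2: ccccaagtgaaGAAgtTTCtagcaggacct
Cct5: acagcggccgaTTCcaGAAgctactctgcg

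The Hspe1 and Hspd1 stretches were the same bases read from opposite strands, at chr1:55088053-55088082, between the starts of both genes. The run of 4 units lay 72 to 89 bases upstream of the Hspe1 start and 127 to 144 bases upstream of the Hspd1 start used here, inside the first exon of another Hspd1 transcript. Runs of 4 units were found in 8 of 32851 windows of the mouse genome (0.0244%), which belonged to 8 genes. Among these, Hspd1 and Hspe1 were both counted for the same bases. Runs of at least 3 units were found in 198 windows (0.603%), which belonged to 179 genes. The other stretches held a single match of 2 units, which 15.1% of all windows held. In Cct6a (plus strand, chr5:129787369-129787398) it lay 24 to 31 bases downstream of the start. In Cct2 (minus strand, chr10:117063399-117063428) it lay 35 to 42 bases upstream of the second of its annotated starts, and in Cct5 (minus strand, chr15:31601862-31601891) 27 to 34 bases upstream. The windows of Tcp1, Cct3, Cct7 and Cct8 held no match, which says only that these letters were not in those windows.

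Between 24464324 and 35184063 reads per library were counted on genes in WT, and between 26159650 and 29189294 in KO. Each of the 10 chaperonin genes had between 117 and 3606 reads in every library. The 10 EC marker genes, among them Pecam1 and Cdh5, were all detected and summed to 1602 to 3010 CPM (counts scaled to a common library size with TMM factors) in WT and 1858 to 3112 in KO. Transcripts of other lung cells were present as well. The 7 alveolar type II genes summed to 5418, 50642 and 15623 CPM in WT replicates 1 to 3 and to between 39317 and 48623 in KO. The 5 B cell genes summed to between 6.63 and 15.8 CPM in WT and between 54.8 and 59.8 in KO, and none of the marker genes of either list was at 0. The 5 airway epithelial genes summed to between 15908 and 41705 CPM in WT and between 35020 and 58730 in KO, above the EC marker sum in every library.

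As compared to WT, the mean CPM of all 10 chaperonin genes was lower in KO, from 11.1% lower for Cct2 to 41.9% lower for Hspd1, and for each gene every KO library lay below every WT library. Across all genes tested, 45.9% had a lower level in KO and 9.2% had all KO libraries below all WT libraries. No chaperonin gene passed an adjusted p of 0.05 in edgeR's quasi-likelihood test (0 of 10, with adjusted p-values from 0.254 to 0.630), which called 0.109% of all genes in either direction and 0.0752% as lower. At an unadjusted p under 0.05 there were 6 of 10, all lower in KO, against 10.3% of all genes in either direction and 4.68% as lower. DESeq2 called 1 of the 10, where 0.64% of all genes passed as lower, and edgeR's likelihood ratio test 1, where 0.595% did. The count in limma-voom was 0, where 26 of 14625 genes passed in either direction. The median log2 fold change of the 10 genes was −0.42, against 0.03 for all genes tested. In these bulk samples, fewer cells of a type and less RNA per cell cannot be told apart.

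**Figure D1:**
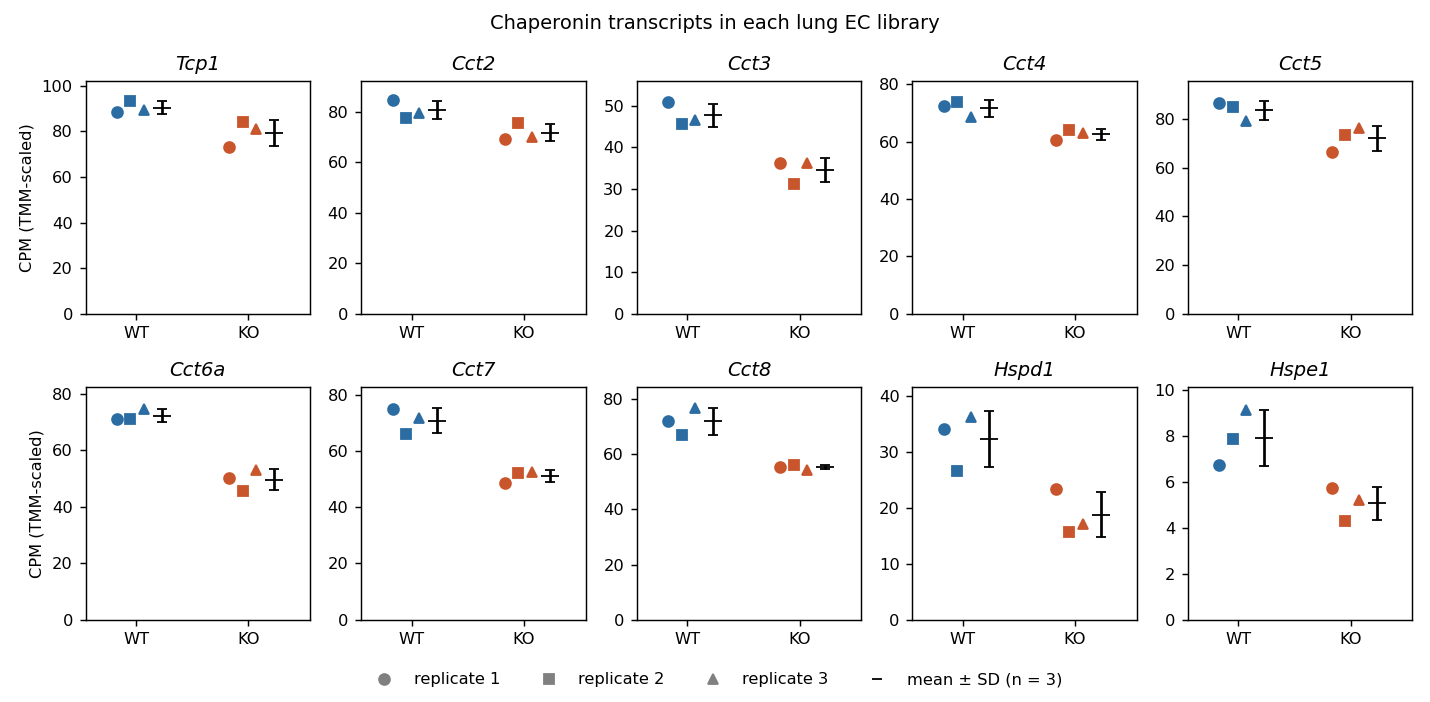
CPM (TMM-scaled, vertical axes starting at 0) of the 10 chaperonin genes in each of the 3 WT and 3 KO libraries, with the mean and SD in black and the replicate shown by the marker's shape. In each panel the KO points lie below the WT points, with 2.04 CPM between the groups for Cct2 and 17.9 CPM for Cct6a.

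The size of the difference varied among the TRiC subunits. The median log2 fold change was −0.47 for Cct3, Cct6a, Cct7 and Cct8, and for Tcp1, Cct2, Cct4 and Cct5 it was −0.19. This grouping was read from the values themselves and is a description. Cct6a, the zeta subunit, measured 70.9, 71.1 and 74.7 CPM in WT and 50.1, 45.6 and 53.0 in KO. Its highest KO library lay 17.9 CPM below its lowest WT library, the widest such gap among the members, and the log2 fold change was −0.54 ± 0.12 (SE, n = 3 per group). Its unadjusted p was 0.0021 and its adjusted p 0.254 in edgeR's quasi-likelihood test. In DESeq2 it was the 1 chaperonin gene that passed, with an adjusted p of 0.0270, where 0.64% of all genes passed as lower and 1.21% in either direction, and its adjusted p over all alternatives ran from 0.0086 to 0.708. Cct6a lies at chr5:129786998-129846371 on the plus strand and overlaps the start of Psph on the opposite strand, from which the strand-specific counting kept it apart.

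Cct7, the eta subunit (chr6:85451514-85468475), had 74.7, 65.9 and 71.5 CPM in WT and 48.6, 52.1 and 52.6 in KO. The highest KO library was well below the lowest WT library, and the log2 fold change was −0.47 ± 0.12 (SE), with an adjusted p of 0.288 in edgeR. Cct3, the gamma subunit (chr3:88297116-88321767), had 50.8, 45.7 and 46.6 CPM in WT and 36.2, 31.2 and 36.3 in KO. It stood apart between the groups in the same way, at −0.47 ± 0.12 (SE), with an adjusted p of 0.305 in edgeR. Cct8, the theta subunit (chr16:87483326-87495873), had 72.0, 67.0 and 76.9 CPM in WT and 55.5, 56.1 and 54.5 in KO. Its KO libraries had the lowest relative SD of any member, 1.47% of their mean, and its log2 fold change was −0.38 ± 0.12 (SE), with an adjusted p of 0.373 in edgeR.

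The remaining subunits lay closer together in the genotypes, without overlap. Tcp1, the alpha subunit and the source of the complex's name (chr17:12915701-12925067), had 88.3, 93.5 and 89.6 CPM in WT and 73.0, 84.1 and 81.0 in KO. Its log2 fold change was −0.19 ± 0.12 (SE), and its adjusted p was 0.611 in edgeR. Cct2, the beta subunit (chr10:117050998-117063814), had 84.5, 77.5 and 79.5 CPM in WT and 69.2, 75.4 and 70.1 in KO, and only 2.04 CPM separated its highest KO from its lowest WT library. Its log2 fold change was −0.17 ± 0.12 (SE), the smallest of the members, with an adjusted p of 0.630 in edgeR. Cct4, the delta subunit (chr11:22990519-23003780), had 72.4, 74.0 and 68.5 CPM in WT and 60.5, 64.2 and 63.2 in KO. Cct5, the epsilon subunit (chr15:31590800-31601847), had 86.7, 85.1 and 79.4 CPM in WT and 66.5, 73.3 and 76.6 in KO. Cct4 and Cct5 had log2 fold changes of −0.19 and −0.21, and neither passed even an unadjusted p of 0.05. Under scaling by total counts alone, Tcp1, Cct2, Cct4 and Cct5 overlapped between the groups, which left 6 of 10 genes without overlap. The share of all genes with every KO library below every WT library, 9.2%, was counted under TMM scaling only.

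**Figure D2:**
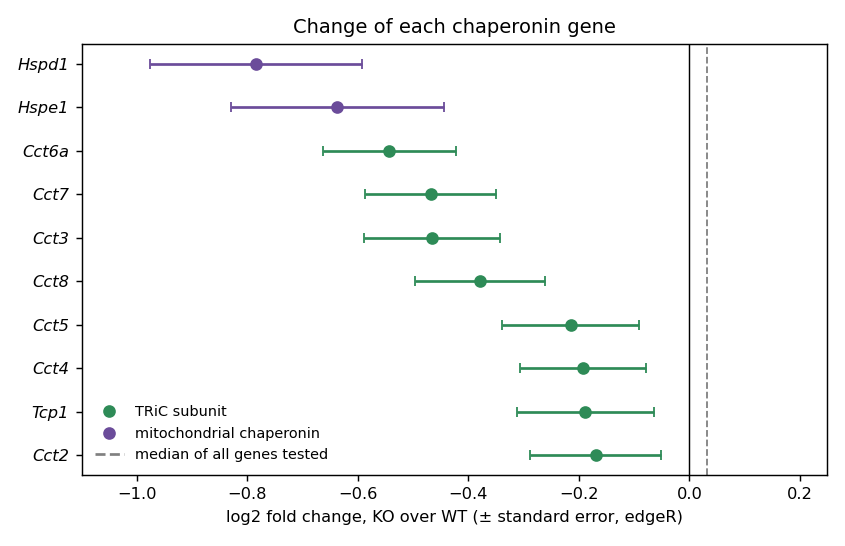
Log2 fold change of KO over WT for each chaperonin gene (horizontal axis, edgeR, bars are ± 1 standard error), ordered from Hspd1 at −0.78 to Cct2 at −0.17. All points lie to the left of 0 and of the dashed median of all genes at 0.03, and Cct2, Tcp1, Cct4 and Cct5 form the group nearest to 0.

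Since the subunits are assembled in equal numbers, their proportions were also compared. Summed over the 8 subunits, TRiC transcripts reached 600.3, 579.7 and 586.7 CPM in WT and 459.7, 482.1 and 487.2 in KO, a mean 1.24 times as high in WT (588.9 ± 10.5 against 476.3 ± 14.6, SD, n = 3). In shares of that sum, Cct6a made up 12.3% ± 0.46 in WT and 10.4% ± 0.82 in KO (SD, n = 3), and Cct7 12.0% ± 0.56 and 10.7% ± 0.13, both with all KO libraries below all WT libraries. The shares of Cct2 (13.7% ± 0.37 in WT and 15.0% ± 0.63 in KO) and Cct4 (12.2% ± 0.56 and 13.2% ± 0.18) lay higher in every KO library. The shares of Tcp1, Cct3, Cct5 and Cct8 overlapped between the genotypes, although Cct3 no longer did so once CPM were divided by gene length. With 3 libraries against 3 an exact permutation test cannot go below p = 0.1, so no single share could pass, and the shares of 1 library sum to a fixed total and are not independent.

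**Figure D3:**
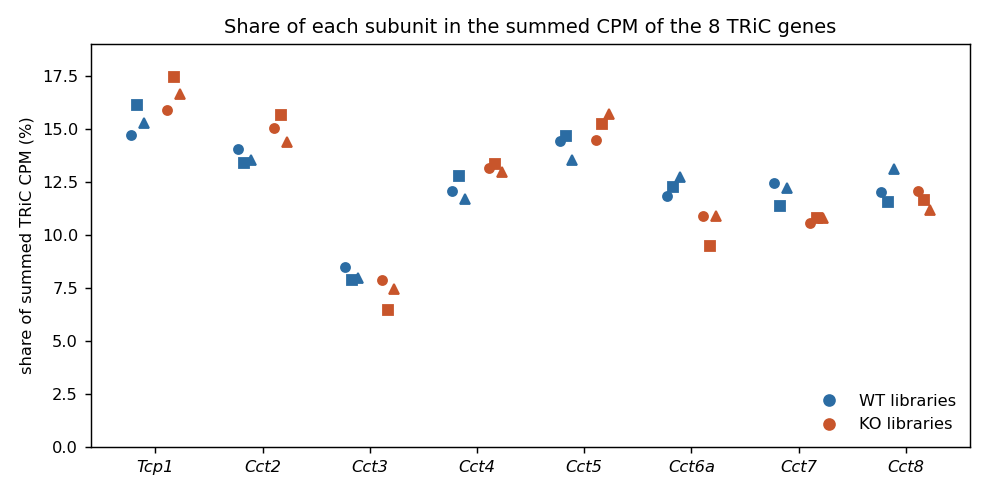
Share of each subunit in the summed CPM of the 8 TRiC genes (vertical axis in percent, not divided by gene length), by library, with WT in blue and KO in orange and the replicate shown by the marker's shape. Cct6a and Cct7 lie lower in every KO library and Cct2 and Cct4 higher, and the other subunits overlap.

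Levels were compared between subunits only per length. In CPM per kilobase of the longest principal transcript, the WT order was Tcp1 (47.6 ± 1.43, SD, n = 3), Cct5 (45.2 ± 2.08), Cct2 (41.1 ± 1.83), Cct8 (30.1 ± 2.08), Cct6a (29.4 ± 0.88), Cct7 (29.0 ± 1.82), Cct4 (28.8 ± 1.14) and Cct3 (24.1 ± 1.39). Tcp1 and Cct5 overlapped, as did Cct5 and Cct2, and Cct8, Cct6a, Cct7 and Cct4 could not be ordered within their spread. Cct3 lay below every other subunit in each WT library. In KO, Cct4 (25.2 ± 0.77) lay above Cct8 (23.1 ± 0.34), Cct7 (20.9 ± 0.90) and Cct6a (20.2 ± 1.51) in every library, and Cct3 (17.5 ± 1.49) was again the lowest. Cct6a has no coding transcript in the annotation used for lengths, and its longest transcript without a retained intron stood in. The WT order depended on the length used. Divided by the length of all annotated exons, Cct2 came first at 41.0 CPM per kilobase and Tcp1 reached 18.0, below Cct5, Cct8 and Cct6a, with Cct3 still the lowest at 7.49.

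The mitochondrial pair showed the lowest KO levels relative to WT among the members. Hspd1, which encodes HSP60 (chr1:55077835-55088243, minus strand), had 34.2, 26.6 and 36.2 CPM in WT and 23.3, 15.8 and 17.2 in KO. KO replicate 1 came closest to WT replicate 2, without reaching it, and the log2 fold change was −0.78 ± 0.19 (SE), with an unadjusted p of 0.0038 and an adjusted p of 0.287 in edgeR's quasi-likelihood test. In edgeR's likelihood ratio test, which called 0.595% of all genes as lower, its adjusted p was 0.0473, and over all alternatives it ran from 0.00073 to 0.688. Hspe1, which encodes HSP10 (chr1:55088132-55091307, plus strand), had 6.73, 7.87 and 9.13 CPM in WT and 5.72, 4.30 and 5.21 in KO. Its log2 fold change was −0.64 ± 0.19 (SE), with an unadjusted p of 0.0114 and an adjusted p of 0.365 in edgeR. Together the pair summed to 40.2 ± 5.46 CPM in WT and 23.9 ± 4.65 in KO (SD, n = 3), 1.69 times as high in WT.

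The ratio of the pair overlapped between the genotypes. The Hspe1 to Hspd1 read ratio was 0.197, 0.296 and 0.252 in WT and 0.245, 0.273 and 0.303 in KO. Its log2 value differed by 0.15 (two-sided exact permutation test, p = 0.6, where the smallest possible p is 0.1). The levels themselves are uncertain, because reads that matched several places were not counted. Of the 50-base windows of the principal transcript, 44.8% in Hspd1 and 36.1% in Hspe1 also occurred in other annotated genes, mostly processed copies, against at most 2.13% in any TRiC subunit. The nearest copy, Hspd1-ps3, held 8, 4 and 7 reads in WT and 2, 1 and 2 in KO.

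Hspd1 and Hspe1, which share 1 run of 4 inverted units, were lower in KO, as were the 8 TRiC subunits. Whether the run bears on the levels was not tested. Of the 8 genes whose windows held such a run, 6 were tested, and the other four, named here after their values were seen, spread on both sides of 0. Chordc1, an HSP90 cochaperone, changed by −0.96 on the log2 scale (edgeR adjusted p = 0.0404). Arpc2, a subunit of the Arp2/3 complex that branches actin filaments, had a log2 fold change of −0.18, Kctd18 one of −0.17 and Fam149a one of 0.24, none past the threshold. Among the TRiC subunits, those with a match of 2 units were Cct6a, with one of the larger differences, and Cct2 and Cct5, with smaller ones.

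The partners that bring substrates to TRiC lay on both sides of 0. Of the 6 prefoldin genes, 4 had a lower level in KO, none at an unadjusted p under 0.05, and none had all KO libraries below all WT libraries. Their median log2 fold change was −0.09, with Pfdn6 at −0.31, Pfdn4 at −0.16, Vbp1 at −0.09, Pfdn2 at −0.08 and Pfdn1 at 0.02. Pfdn5 measured 64.8, 71.2 and 75.7 CPM in WT and 80.4, 86.2 and 76.7 in KO, higher in every KO library, with a log2 fold change of 0.20 ± 0.13 (SE) and an adjusted p of 0.597 in edgeR. Of the 4 cochaperones, Pdcl3, a phosducin-like protein that binds TRiC, had 51.6, 48.3 and 56.8 CPM in WT and 43.1, 39.8 and 45.5 in KO. Its groups did not overlap, its log2 fold change was −0.29 and its unadjusted p was 0.0501 in edgeR. Pdcl (−0.13), Txndc9 (−0.10) and Pdcd5 (0.17) overlapped between the groups. The chaperonin-like genes linked to Bardet-Biedl syndrome, whose products help to assemble a ciliary complex, had log2 fold changes of −0.20 for Mkks, 0.43 for Bbs12 and 0.91 for Bbs10, none past the threshold and all overlapping. Cct6b, a testis form of the zeta subunit, had too few reads to be tested.

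The actin and tubulin genes, whose products are the main clients of TRiC, were lower in KO in all 13 cases, with a median log2 fold change of −0.53. At an unadjusted p under 0.05 there were 9 of 13, all lower, and 9 of 13 had no overlap, against 4.68% and 9.2% of all genes. None passed the adjusted threshold in edgeR. In DESeq2 Actb, the cytoplasmic beta actin, and Tubb6, a beta tubulin, passed at adjusted p-values of 0.0270 and 0.00257. There 0.64% of all genes passed as lower. Actb had 1808, 1610 and 1911 CPM in WT and 1256, 1194 and 1198 in KO, and its log2 fold change in edgeR was −0.55 ± 0.23 (SE). Tubb6 had 12.6, 14.6 and 10.6 CPM in WT and 5.72, 6.4 and 7.11 in KO, and its log2 fold change in edgeR was −0.98 ± 0.18 (SE). The lowest value was that of Tubb3 at −1.72, which had under 2 CPM in every library, and the highest that of Tubg1, the gamma tubulin of microtubule nucleation, at −0.10. Several of these genes have near-identical copies, so their levels are uncertain. The 6 tubulin cofactors, which act after TRiC in the assembly of tubulin dimers, had a median of −0.05, from Tbcb at −0.24 to Tbce at 0.20, with 3 lower and none at an unadjusted p under 0.05.

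Around the mitochondrial pair, the other chaperones and proteases of the matrix and inner membrane had a median of −0.02 over 16 genes, 10 of them lower. At an unadjusted p under 0.05 there were 2 of 16, both lower, against 4.68% of all genes as lower and 10.3% in either direction. Hspa9, the mitochondrial HSP70 that pulls proteins into the matrix, had 82.2, 77.6 and 80.6 CPM in WT and 65.5, 65.4 and 64.4 in KO, a log2 fold change of −0.30 with an adjusted p of 0.455 in edgeR. Grpel1, its nucleotide exchange factor, had 20.0, 22.0 and 19.6 CPM in WT and 16.5, 15.7 and 17.8 in KO, a log2 fold change of −0.30 with an adjusted p of 0.476. Both lay lower in every KO library, as did 9.2% of all genes. The highest value of the list was that of Hscb, an iron-sulfur cluster cochaperone, at 0.29. The 16 import genes tested, subunits of the TOM and TIM translocases, had a median of −0.05, from Timm23 at −0.77, which had under 2 CPM, to Tomm20 at 0.23, and none reached an unadjusted p of 0.05. Of the 7 factors of the integrated stress response, which mitochondrial damage can induce, none reached an unadjusted p of 0.05, with a median of −0.05, from Ddit3 at −0.32 to Chac1 at 0.29.

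**Figure D4:**
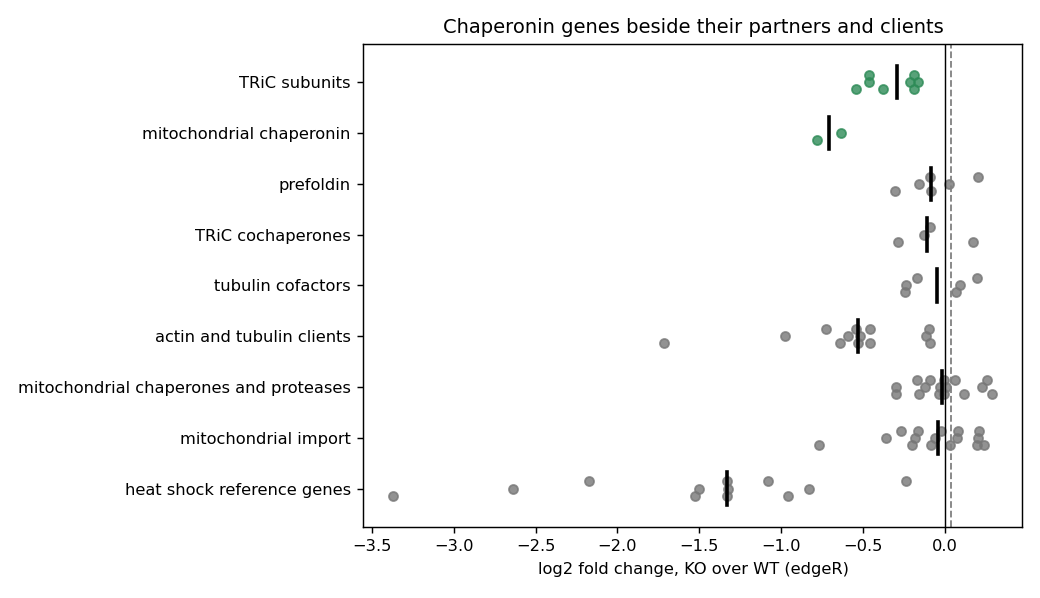
Log2 fold change of KO over WT (horizontal axis, edgeR) of each tested gene in 9 lists, 1 point per gene, with the list's median as a black bar, 0 as a solid line and the median of all genes at 0.03 as a dashed line. Both chaperonin lists and the actin and tubulin clients lie to the left of 0 without exception, the heat shock reference genes lie farthest left, and prefoldin, cofactor and import genes lie on both sides of 0.

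For reference, the 12 inducible or abundant heat shock genes that are not chaperonins had a median of −1.33 on the log2 scale. In each of the 12 every KO library lay below every WT library, as in 9.2% of all genes. In edgeR 5 of them fell past the adjusted threshold: Hspa1b (−3.37), Hsph1 (−2.17), Hspb1 (−1.53), Stip1 (−1.33) and Chordc1. In DESeq2 11 of the 12 passed, all but Bag3 (−0.24), the cochaperone of selective autophagy. The shares of all genes called as lower were 0.0752% in edgeR and 0.64% in DESeq2. Hspa1a and Hspa1b are near-identical and lose shared reads. Each chaperonin gene's log2 fold change was closer to 0 than the list's median. The 10 genes of nucleolar growth, which share the upkeep of protein synthesis with TRiC, had a median of −0.14 and ran from Fbl at −0.91 to Npm1 at 0.21. At an unadjusted p under 0.05 there were 2 of 10, Myc (−0.89) and Nolc1 (−0.46), against 4.68% of all genes as lower and 10.3% in either direction.

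Over the 6 libraries the log2 CPM of the 10 members correlated with each other. Pearson's r ranged from 0.46 for Tcp1 with Hspd1 to 0.96 for Cct3 with Cct6a over 45 pairs (median 0.84). These values describe libraries that share depth, cell content and the genotype difference. Among 3231 well-expressed genes, those with the pattern most like the mean of the TRiC subunits over the 6 libraries were Fkbp4 (r = 0.999), Klf2 (0.995), Ube2g2 (0.995), Hsph1 (0.994) and Strap (0.993). Fkbp4 and Hsph1 encode chaperones that work with HSP90 and HSP70, and Klf2 encodes a flow-responsive transcription factor of ECs. Their log2 fold changes were −0.97 for Fkbp4, −1.06 for Klf2, −0.42 for Ube2g2, −2.17 for Hsph1 and −0.29 for Strap. Closest to the mean of Hspd1 and Hspe1 were Mcl1 (0.982), Dnaja1 (0.981), Psmd11 (0.976), Stk40 (0.975) and Cebpg (0.975). Mcl1 encodes an anti-apoptotic protein and Dnaja1 an HSP70 cochaperone.

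Transcripts of other lung cells differed between the genotypes in part. All 7 alveolar type II genes, all 5 B cell genes and all 5 T cell genes had a log2 fold change above 0. Of all genes, 45.9% lay below 0. No alveolar type II gene reached an unadjusted p of 0.05 in edgeR, and each overlapped between the groups. All 5 B cell genes reached it, without overlap, where 10.3% of all genes reached it in either direction. Past an adjusted p of 0.05 there were 2 of the 5 in edgeR (Cd79a and Ms4a1), where 0.109% of all genes passed. In DESeq2 there were 4, where 1.21% passed. The airway, alveolar type I, macrophage, neutrophil and mesenchyme genes lay on both sides of 0. The T cell genes summed to between 2.45 and 4.17 CPM in WT and between 6.0 and 8.55 in KO, and none was at 0. At an unadjusted p under 0.05 there were 3 of the 5, all higher in KO, against 10.3% of all genes in either direction. WT replicate 2 had the highest alveolar type II sum of any library, 50642 CPM, and lay above every KO library in each of the 10 chaperonin genes. Among the WT libraries it had the lowest TRiC sum, 579.7 CPM against 600.3 and 586.7. Its sum of Hspd1 and Hspe1, 34.5 CPM, was also the lowest in WT, against 40.9 and 45.3. The part of alveolar type II transcripts in the chaperonin values was not tested. Without that library, 3 chaperonin genes passed an adjusted p of 0.05 in edgeR as lower in KO (Hspd1, Cct6a and Cct7), where 0.876% of all genes did. In DESeq2 without it there were 5 (Hspd1, Cct3, Cct6a, Cct7 and Cct8), where 1.81% did. For the B cell and T cell sums no WT library reached the KO range, so the content of these cells and genotype cannot be told apart, and the part of their transcripts in the chaperonin values was not tested.

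**Figure D5:**
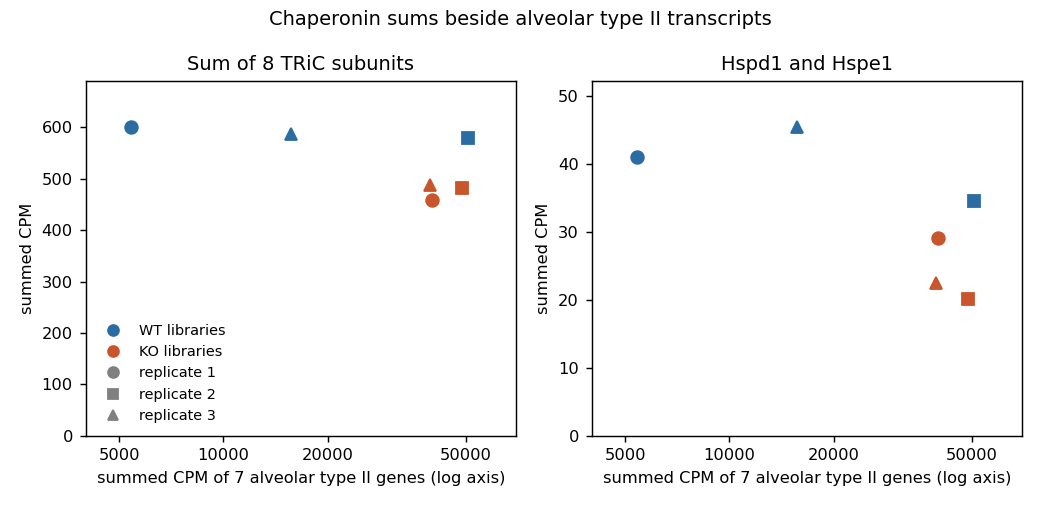
Summed CPM of the 8 TRiC subunits (left) and of Hspd1 and Hspe1 (right) against the summed CPM of 7 alveolar type II genes (horizontal log axis) in each library, with WT in blue, KO in orange and the replicate shown by the marker's shape. WT replicate 2, at the far right beside the KO libraries, lies above all of them at 579.7 CPM for TRiC and 34.5 CPM for the mitochondrial pair. It has the lowest WT value in both panels.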

How the data were processed

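Polyadenylated RNA of lung ECs was sequenced in 3 WT and 3 KO libraries. The authors deposited whole-number counts of reads per gene, 1 table per library, together with the exon length of each gene. Per the file headers, featureCounts 2.0.0 counted uniquely aligned reads in the reverse orientation on the Ensembl release 84 annotation of GRCm38. The submitters' processing notes also name STAR 2.5.4b and bcl2fastq 2.18. The depth, 24464324 to 35184063 counts per library, allowed the filter (filterByExpr, minimum count 10) to keep 14625 genes. Groups came from the sample labels.

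Libraries were scaled by TMM, and KO was compared with WT by edgeR's quasi-likelihood test (edgeR 4.0.16, R 4.3.3), with genotype as the only term and Benjamini-Hochberg adjustment over all genes tested. Log2 CPM used a prior count of 2. Alternatives were DESeq2 1.42.0, limma-voom (limma 3.58.1), the likelihood ratio test, edgeR's legacy option, other scalings and filters, removal of mitochondrially encoded genes, the replicate number as a block, other gene lengths, and each library left out in turn. DESeq2 with a library left out, the length of the principal transcript and the count of unshared 50-base windows were added after the data had been seen. The search for runs of 4 inverted units was not in the plan and was added to it. The tests across genes were tried on simulated data with known changes. The quasi-likelihood test recovered 157 of 200 changed genes, with 8 false calls. The simulated log2 fold change was 1.5 in either direction, larger than that of any member, with the same dispersion for all genes. It therefore does not show how the tests perform at the members' changes.

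The members and gene lists were chosen with earlier results of these data known. The text names all members and every tested paralog, prefoldin and cochaperone gene. Outside the cell type markers, it names every gene of a list past an adjusted p of 0.05 in edgeR or DESeq2. It also gives the highest and lowest gene of each such list, and the 5 genes of closest correlation among those with a mean log2 CPM above 5. Myc, Nolc1, Hspa9 and Grpel1 were named after their values were seen. Promoter sequences came from RefSeq (GRCm38.p6), and transcripts from GENCODE's annotation of the same build. The study names no block, so replicate numbers were not taken as pairs in the main test. Same-numbered libraries did not deviate together. The lncRNAs of the deleted region were not analysed here.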

Additional observations from a re-analysis of the deposited data

How the results depend on the processing

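The log2 fold changes of the 10 chaperonin genes were below 0 in all 230 combinations of gene and alternative, over 17 planned and 6 added settings, and calls were what moved. The count of chaperonin genes past the adjusted threshold was 0 in the test as reported, 1 in DESeq2 (Cct6a), 1 in the likelihood ratio test (Hspd1), and 0 in limma-voom and under every other scaling and filter. With 1 library left out it ran from 0 to 5, with 3 in edgeR and 5 in DESeq2 without WT replicate 2, and 1 in DESeq2 without KO replicate 1 (Hspd1). As lower, 0.0752% of all genes passed in the test as reported, 0.64% in DESeq2 and 0.595% in the likelihood ratio test. Without WT replicate 2 these shares were 0.876% in edgeR and 1.81% in DESeq2. The count of chaperonin genes at an unadjusted p under 0.05 was 4 to 6 throughout. The median log2 fold change of the 10 genes was −0.42, moved to −0.60 with total counts as the only scaling, and lay between −0.50 and −0.40 in edgeR with 1 library left out (the lowest without WT replicate 2) and at −0.51 in DESeq2 without WT replicate 2. Total-count scaling also lowered the median of all genes from 0.03 to −0.13, and relative to that median the members stood at −0.46 under both scalings. It left 6 of 10 genes without overlap, and the share of all genes without overlap was not counted under that scaling.

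Over all genes, 16 passed in the test as reported, 187 in DESeq2, 26 in limma-voom, 211 in the likelihood ratio test, 26 under RLE, 31 under upper-quartile and 123 under total-count scaling, and 152 without a filter. With 1 library left out, the count ran from 0 to 791 in edgeR with the highest count without WT replicate 2. In DESeq2 it was 143, 1485 and 156 without WT replicates 1, 2 and 3 and 82, 80 and 86 without KO replicates 1, 2 and 3. Why the calls differ between tests was not tested. The same-numbered libraries of both genotypes did not deviate together (r from −0.08 to 0.22), and 1 of 3 KO libraries correlated best with its own number. With the replicate number as a block, 0 genes passed over all genes and 0 among the chaperonins, of which 6 were at an unadjusted p under 0.05.

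The design of 3 against 3 libraries limits what a single gene can show. Reads shared with processed copies were not counted, which limits the levels of Hspd1 and Hspe1, and the order of the subunits by level depended on the length used.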
